A study of Mus musculus with 32 samples.

Results

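The comparison described here set the spleen against the mesenteric lymph node of the same wild type mice. It used 8 of the 32 arrays of the series, namely the 4 arrays of the group spleen, wild type and the 4 of the group mesenteric lymph node, wild type, chosen by their tissue and genotype labels and paired by mouse number. The wild type mice were female C57BL/6 animals aged 12 weeks, the non-transgenic littermates of mice with a CD2-CD30L transgene that was made to give T cells a constant excess of CD30L. Spleen, mesenteric lymph node, peripheral lymph node and thymus were taken from 4 mice of each genotype, and 5 µg of each tissue's total RNA went into biotin labelling for hybridisation to 1 Affymetrix array. The 8 spleen and mesenteric lymph node arrays of the CD30L transgenic mice served as the same tissue contrast in other animals.

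Spleen and lymph node both bring lymphocytes together with antigen, but they are built round different fluids. The spleen filters blood: its red pulp holds macrophages that take up old red cells and recycle their iron, in mice it also makes red cells, granulocytes and platelets, and its white pulp is bordered by a marginal zone. A lymph node filters lymph that arrives through lymphatic vessels, lymphocytes enter it from blood through high endothelial venules, and the mesenteric nodes drain the intestine and lie embedded in the fat of the mesentery.

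Each value below is a level, log2(intensity + 16) after quantile normalization over the 8 arrays, so that 4.00 is the floor at which the deposited value was 0 or less. Differences are spleen minus node in these log2 units. Each is given with the moderated standard error of a limma fit to 4 mice per tissue. Moderation draws this error towards the spread shared by all tested probe sets. Folds on this scale understate the change of dim genes. A gene counted as called when the Benjamini-Hochberg adjusted p of a paired limma fit was under 0.05. The trimmed mean intensity of the deposited arrays was 190 to 272 in the spleens and 106 to 232 in the nodes, lowest in the node of mouse 2. Arrays of the same tissue correlated at 0.965 to 0.986 among spleens and 0.942 to 0.984 among nodes, and at 0.890 to 0.948 between the tissues. Markers of exocrine pancreas, which lies next to the mesentery, were very high in the node of mouse 2. The ratio of 3' to 5' signal of Actb, a measure of RNA integrity, was 3.25 and 3.58 in the spleens of mice 1 and 2, 1.69 and 1.65 in those of mice 3 and 4, and 1.60 to 1.74 in the nodes. The median of a list with 5 or more called genes is given for mice 1 and 2 and for mice 3 and 4 apart where it moved by over 1.5 times between them. The part of RNA integrity in these moves was not tested.

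Of 27022 probe sets tested, 6397 (23.7%) were called, 3199 of them higher and 3198 lower in spleen. Of these, 1473 were at least 2-fold higher in spleen (5.45% of those tested) and 1139 at least 2-fold lower (4.22%). At the level of genes, with each gene represented by its probe set of highest mean, 1306 of 12950 genes were higher in spleen (10.1%) and 1901 were lower (14.7%). These last shares are the background for the gene groups below, beside a median difference of -0.08 over all 12950 genes. The 4 spleen values lay wholly apart from the 4 node values in 37.4% of the genes. Without mouse 4 the number of probe sets called was 2470 and without mouse 2 it was 5783. With mice 3 and 4 alone it was 5720, but that fit has few arrays and little error estimate of its own. The same limit holds for the list counts with mice 3 and 4 below. On the values as deposited, without quantile normalization, 84.9% of the calls were higher in spleen and the median over all probe sets was 0.34, against 50% and -0.02 with it, so the directions below are relative to the middle of each array. In samples of whole tissue, fewer cells of a type and less RNA per cell cannot be told apart.

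The largest rises in spleen were genes of red cells. Slc4a1, the band 3 anion exchanger of the red cell membrane, was at 12.61, 12.94, 12.64 and 12.99 in the spleens of mice 1 to 4, against 4.25, 4.62, 4.27 and 5.03 in their nodes. All spleens were near the top of the scale and all nodes near its floor, a difference of 8.25 ± 0.13 (adjusted p = 2.02e-05). Alas2, the erythroid enzyme that starts haem synthesis, was at 11.60, 12.31, 12.52 and 12.76 in the spleens of mice 1 to 4, against 4.20, 5.19, 5.49 and 6.13 in their nodes (7.04 ± 0.16, adjusted p = 6.73e-05). Rhag and Rhd encode the Rh-associated glycoprotein and the Rh antigen of the red cell surface. Rhag was at 10.46, 10.81, 11.02 and 11.66 in the spleens of mice 1 to 4, against 4.33, 4.51, 4.18 and 4.20 in their nodes (6.68 ± 0.24, adjusted p = 0.000143). Rhd was at 10.44, 11.03, 11.12 and 11.87 in the spleens of mice 1 to 4, against 4.53, 4.00, 4.00 and 4.00 in their nodes, at the floor in 3 nodes (6.98 ± 0.31, adjusted p = 0.000231). In both genes the spleen of mouse 1 was the lowest and that of mouse 4 the highest spleen.

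Of the 15 genes with the largest rises, the others known from the red cell lineage were Hemgn, Hbb-b2, Car1, Klf1, Tspo2, Ermap, Ank1 and Nfe2. Hemgn, an erythroid nuclear protein, had a difference of 6.46 ± 0.28, and Klf1, a transcription factor that switches on globin genes, of 5.68 ± 0.32. Ermap, a membrane protein of erythroid cells, had 5.48 ± 0.21, Ank1, which ties the membrane skeleton to band 3, 5.21 ± 0.40, Nfe2, a transcription factor of red cells and megakaryocytes, 5.19 ± 0.34, and Car1, a carbonic anhydrase of red cells, 5.73 ± 0.21. Tspo2, an erythroid relative of the translocator protein, was at 8.71, 9.50, 9.63 and 10.57 in the spleens and listed at 0 or less in all 4 nodes (adjusted p = 0.000368). Hbb-b2, an adult beta globin, had a difference of 5.81 ± 0.42, but its probe sets ran opposite ways, from -2.48 to 5.81, and near-identical globin copies may share them. Gfi1b, a repressor needed for red cells and megakaryocytes, and Gdpd2, a glycerophosphodiester phosphodiesterase, were also listed at 0 or less in all nodes. Gfi1b was at 9.02, 9.04, 9.27 and 9.94 in the spleens (adjusted p = 0.000127) and Gdpd2 at 9.54, 9.31, 9.55 and 9.36 (adjusted p = 6.19e-05).

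**Figure D1:**
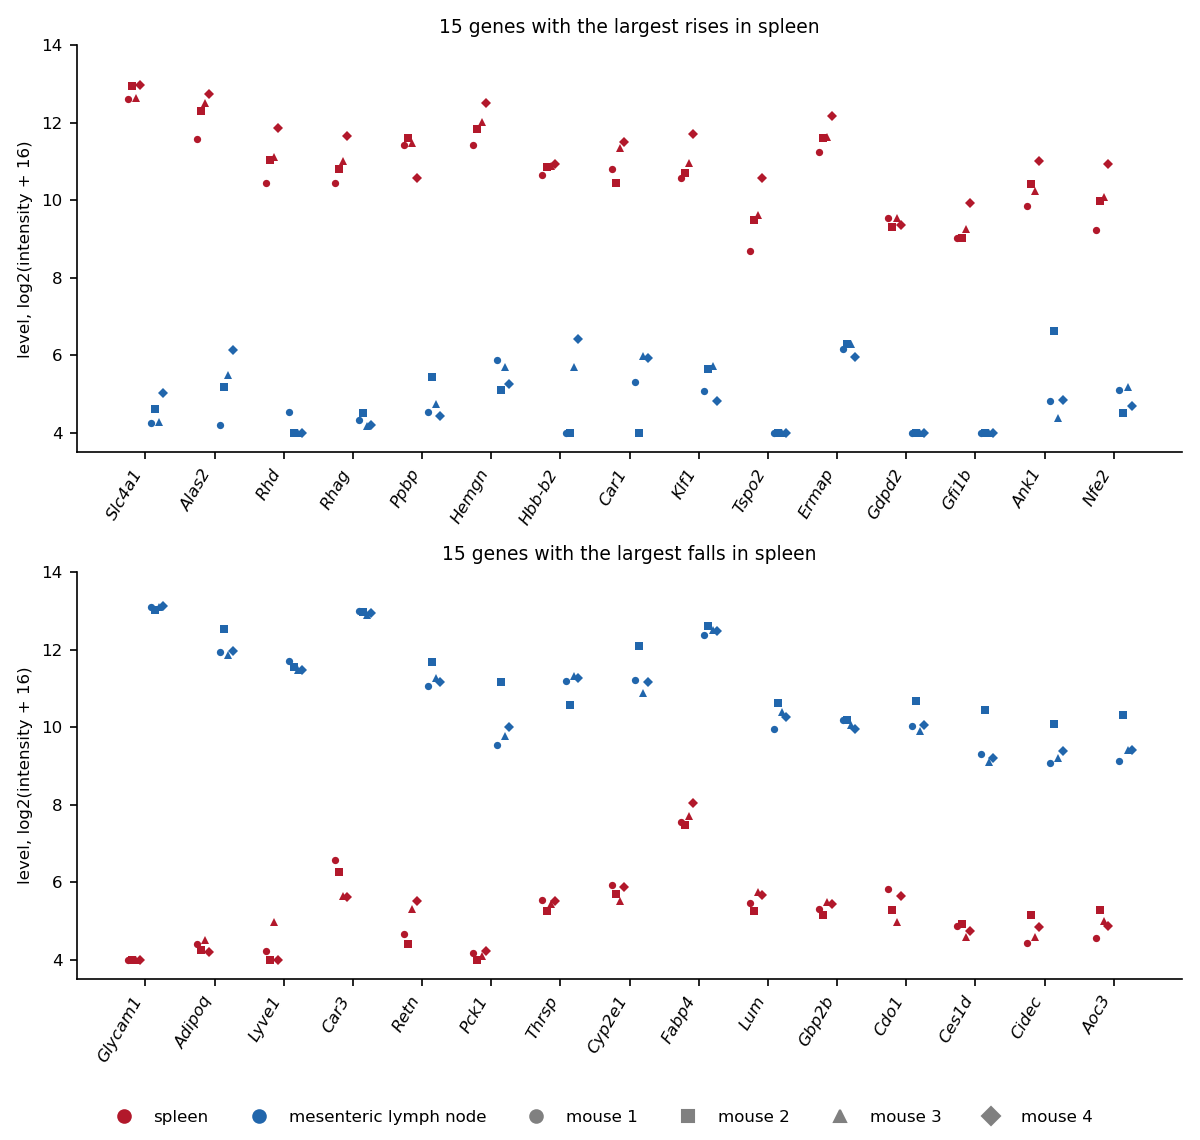
Levels on the log2(intensity + 16) axis of the 15 genes with the largest rises and the 15 with the largest falls, with each point an array, spleen in red to the left of node in blue, and the mark showing the mouse. In every gene shown the 4 spleen points lie apart from the 4 node points, as the choice of these genes required, and the node of mouse 2 is the highest node for Adipoq, Pck1 and Ces1d among others.

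The promoters of the leading erythroid genes are shown because these genes moved together and because erythroid promoters are known to carry binding motifs of GATA factors. The windows come from RefSeq (GRCm38.p6) and hold 250 bases before and 50 after the annotated start, for 10 of the 15 genes with the largest rises. The letters AGATAA were searched on both strands, read as TTATCT on the other, and stand in capitals. They occurred in 3 of the 10 windows and in 11.2% of all 32851 windows of that length, and in 2 of the 8 windows found for the 15 largest falls. The 3 windows lie at chrX:150547167-150547466 on the + strand for Alas2, chr4:134864286-134864585 on the + strand for Rhd and chr4:46404134-46404433 on the - strand for Hemgn, printed 5′ to 3′ along each gene.
Alas2: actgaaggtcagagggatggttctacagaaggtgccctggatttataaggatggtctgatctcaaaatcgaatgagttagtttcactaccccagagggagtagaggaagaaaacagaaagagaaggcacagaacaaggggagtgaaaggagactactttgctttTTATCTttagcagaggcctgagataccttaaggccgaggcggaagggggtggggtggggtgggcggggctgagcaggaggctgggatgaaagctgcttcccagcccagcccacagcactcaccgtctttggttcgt
Rhd: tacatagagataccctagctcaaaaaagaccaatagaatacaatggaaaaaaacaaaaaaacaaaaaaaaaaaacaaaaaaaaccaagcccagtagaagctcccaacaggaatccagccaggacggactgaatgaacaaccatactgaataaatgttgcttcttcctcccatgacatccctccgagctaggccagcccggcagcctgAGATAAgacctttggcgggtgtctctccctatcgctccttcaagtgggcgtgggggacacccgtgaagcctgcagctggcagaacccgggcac
Hemgn: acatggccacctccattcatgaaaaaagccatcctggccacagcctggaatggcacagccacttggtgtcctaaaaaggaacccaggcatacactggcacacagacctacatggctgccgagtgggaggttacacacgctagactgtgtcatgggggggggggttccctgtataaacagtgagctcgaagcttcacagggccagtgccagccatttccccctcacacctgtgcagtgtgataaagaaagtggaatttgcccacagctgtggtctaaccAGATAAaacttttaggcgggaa
A match describes the letters of the window and was not tested as a binding site.

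The wider erythroid groups rose in nearly every tested member. Of the 27 genes in a list of red cell and erythroblast genes, 20 were tested, 19 rose and 0 fell, with a median difference of 4.85, beside 10.1% of all genes that rose, 14.7% that fell and a median of -0.08. Car2, the other main red cell carbonic anhydrase, rose by 4.36 ± 0.16 (adjusted p = 0.000145) and Sptb, the beta chain of spectrin, by 3.13 ± 0.13 (adjusted p = 0.000192), although the second probe set of Sptb stood at -0.42 and was not called. All 10 tested genes of haem synthesis rose, with a median of 2.78. Among them were the pathway enzymes Alad (2.82 ± 0.16, adjusted p = 0.000428) and Cpox (2.42 ± 0.15, adjusted p = 0.000627), the mitochondrial iron importer Slc25a37 (3.48 ± 0.24, adjusted p = 0.00089) and the mitochondrial transporter Abcb10 (3.11 ± 0.22, adjusted p = 0.000918). Another probe set of Alad stood at 0.45 and was not called (adjusted p = 0.0854). The summed intensity of the red cell list was 32900 to 62100 in the spleens and 2490 to 3000 in the nodes. The spleen of mouse 4 was the highest spleen for 19 of the 20 red cell genes and for all 10 haem synthesis genes, and the spleen of mouse 1 was the lowest for 18 and 10 of them. The median difference of the red cell list was 4.46 in mice 1 and 2, whose spleens had the higher 3' to 5' ratios, and 5.08 in mice 3 and 4.

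Platelet and granulocyte genes rose as well. Ppbp, a chemokine stored in platelets, was at 11.44, 11.60, 11.48 and 10.57 in the spleens of mice 1 to 4, against 4.53, 5.43, 4.73 and 4.43 in their nodes (6.49 ± 0.18, adjusted p = 8.57e-05). The spleen of mouse 4 was the lowest spleen. All spleens were above all nodes, as the choice of Ppbp among the largest rises required. Of 15 tested genes of megakaryocytes and platelets, 10 rose and 0 fell (median 1.47, with 1.95 in mice 1 and 2 and 1.20 in mice 3 and 4). Pf4, platelet factor 4, rose by 2.54 ± 0.29 (adjusted p = 0.00384), the platelet tubulin Tubb1 by 3.51 ± 0.23 (adjusted p = 0.000744) and the glycoprotein Gp1bb of the von Willebrand factor receptor by 3.31 ± 0.28 (adjusted p = 0.00165). Another probe set of Gp1bb stood at 0.58 and was not called (adjusted p = 0.0656). Gp9, the partner of Gp1bb, was at 7.44, 7.58, 7.84 and 7.66 in the spleens and listed at 0 or less in all nodes (adjusted p = 0.000121). Of 16 tested neutrophil genes, 13 rose and 0 fell (median 2.10). Opposite to the red cell genes, the spleen of mouse 4 was the lowest spleen for 11 of the 15 megakaryocyte genes and 15 of the 16 neutrophil genes.

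S100a8, a subunit of the neutrophil protein calprotectin, was at 11.62, 11.90, 11.70 and 10.61 in the spleens of mice 1 to 4, against 7.33, 5.85, 8.19 and 7.18 in their nodes. The groups lay apart, with the spleen of mouse 4 lowest among spleens and the node of mouse 2 lowest among nodes (4.32 ± 0.45, adjusted p = 0.00291). Genes of both early and late granules were among those that rose. Mpo, the myeloperoxidase of primary granules, rose by 2.37 ± 0.19 (adjusted p = 0.00123), Camp, the cathelicidin of secondary granules, by 3.58 ± 0.41 (adjusted p = 0.00394), Lcn2, an iron-binding granule protein, by 2.63 ± 0.19 (adjusted p = 0.000894) and the chitinase-like Chil3 by 3.79 ± 0.38 (adjusted p = 0.00272). Among genes of haematopoietic progenitors, 5 of 10 rose and 2 fell, with 3 rising without mouse 3 and 1 falling without mouse 1, 2 or 3. Tal1, a transcription factor of early blood and red cells, rose by 3.37 ± 0.22 and Myb, a factor of dividing progenitors, by 1.84 ± 0.16 (adjusted p = 0.000702 and 0.0017). Cd34, carried by progenitors and by endothelium, fell with a difference of -1.37 ± 0.13 (adjusted p = 0.00199).

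Genes of cell division rose in spleen. Of 31 tested cell cycle genes, 26 rose and 0 fell, with a median of 1.20. Cdc6, which loads the replicative helicase on DNA, was at 9.14, 9.12, 9.62 and 10.09 in the spleens of mice 1 to 4, against 7.24, 6.90, 6.99 and 7.14 in their nodes (2.43 ± 0.20, adjusted p = 0.00133). Rrm2, the regulated subunit of ribonucleotide reductase, was at 11.95, 12.13, 12.20 and 12.52 in the spleens of mice 1 to 4, against 10.34, 10.26, 9.92 and 10.15 in their nodes (2.04 ± 0.17, adjusted p = 0.00142). Every spleen exceeded every node in both genes, and the spleen of mouse 4 was the highest. Values of the tissues lay apart, in either direction, in 37.4% of all genes. Birc5, or survivin, rose by 1.92 ± 0.18, the mitotic protein Cdca8 by 1.43 ± 0.14 and the helicase subunit Mcm7 by 1.16 ± 0.11 (adjusted p = 0.00216, 0.00217 and 0.00247). The spleen of mouse 4 was the highest spleen for 30 of the 31 cell cycle genes, as it was for the red cell genes. The median of the list was 0.97 in mice 1 and 2 and 1.52 in mice 3 and 4. The red cell list moved with this group, and its part in the rise was not tested.

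Macrophage genes rose or fell by list. Hmox1, the oxygenase that breaks down haem, was at 11.70, 11.58, 11.47 and 10.93 in the spleens of mice 1 to 4, against 8.01, 8.32, 8.25 and 8.23 in their nodes (3.22 ± 0.18, adjusted p = 0.000428). Slc40a1, the iron exporter ferroportin, was at 12.40, 12.40, 12.54 and 12.08 in the spleens of mice 1 to 4, against 9.41, 9.62, 9.43 and 9.29 in their nodes (2.92 ± 0.12, adjusted p = 0.000191). The spleens lay about 3 log2 units above the nodes in both. Spic, the transcription factor needed for red pulp macrophages, rose by 2.28 ± 0.13 (adjusted p = 0.000519), the receptor Treml4 by 2.11 ± 0.14 (adjusted p = 0.000804) and the adhesion molecule Vcam1 by 1.29 ± 0.13 (adjusted p = 0.00247). The other probe sets of Vcam1, at 0.87 and 0.31, were not called (adjusted p = 0.0696 and 0.327). In all, 10 of 17 tested genes of red pulp macrophages and iron recycling rose and 1 fell (median 0.95), and the spleen of mouse 4 was the lowest spleen for 13 of them.

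Markers often used for marginal zone macrophages of the spleen were higher in the node. Cd209b, the lectin SIGN-R1, was at 6.80, 6.76, 7.59 and 6.73 in the spleens of mice 1 to 4, against 11.39, 11.18, 11.30 and 10.87 in their nodes (-4.22 ± 0.17, adjusted p = 0.000191). The node values exceeded every spleen value, and the spleen of mouse 3 was the highest spleen. Msr1, a scavenger receptor, was at 4.58, 5.04, 5.10 and 4.00 in the spleens of mice 1 to 4, against 9.12, 9.45, 8.74 and 8.90 in their nodes (-4.37 ± 0.22, adjusted p = 0.000302). Marco, another scavenger receptor, was at 10.14, 10.11, 10.24 and 9.69 in the spleens of mice 1 to 4, against 12.34, 12.31, 12.11 and 12.07 in their nodes (-2.16 ± 0.13, adjusted p = 0.000533). Siglec1, the sialoadhesin of metallophilic and of node sinus macrophages, had a difference of -1.66 ± 0.19 (adjusted p = 0.00399). Of the 6 genes tested, these 4 fell in spleen and 0 rose. All 4 are known also from macrophages of lymph node sinuses. Nr1h3, the nuclear receptor LXR alpha, and Timd4, a receptor for dying cells, did not pass the test, with differences of -0.42 ± 0.12 and -0.37 ± 0.12 (adjusted p = 0.0533 and 0.081).

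Genes of node and connective tissue macrophages fell in spleen in 5 of 7 cases and rose in 0. Besides Lyve1, they were the lectin Clec10a (-2.39 ± 0.27, adjusted p = 0.00385), its close relative Mgl2 (-1.56 ± 0.16, adjusted p = 0.00296), the folate receptor Folr2 (-2.18 ± 0.12, adjusted p = 0.000416) and stabilin 1, Stab1 (-1.58 ± 0.14, adjusted p = 0.00161). The summed intensity of the list was 1520 to 2280 in the spleens and 5060 to 6220 in the nodes. Of 10 tested monocyte genes, 2 rose and 1 fell, and 0 rose and 0 fell without mouse 3, as against 1 and 0 without mouse 1 or 4. Fcgr4, an Fc receptor of monocytes and macrophages, rose by 1.22 ± 0.19 (adjusted p = 0.0108) and stood at 1.05 to 1.41 when any mouse was left out, missing the threshold without mouse 3.

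**Figure D2:**
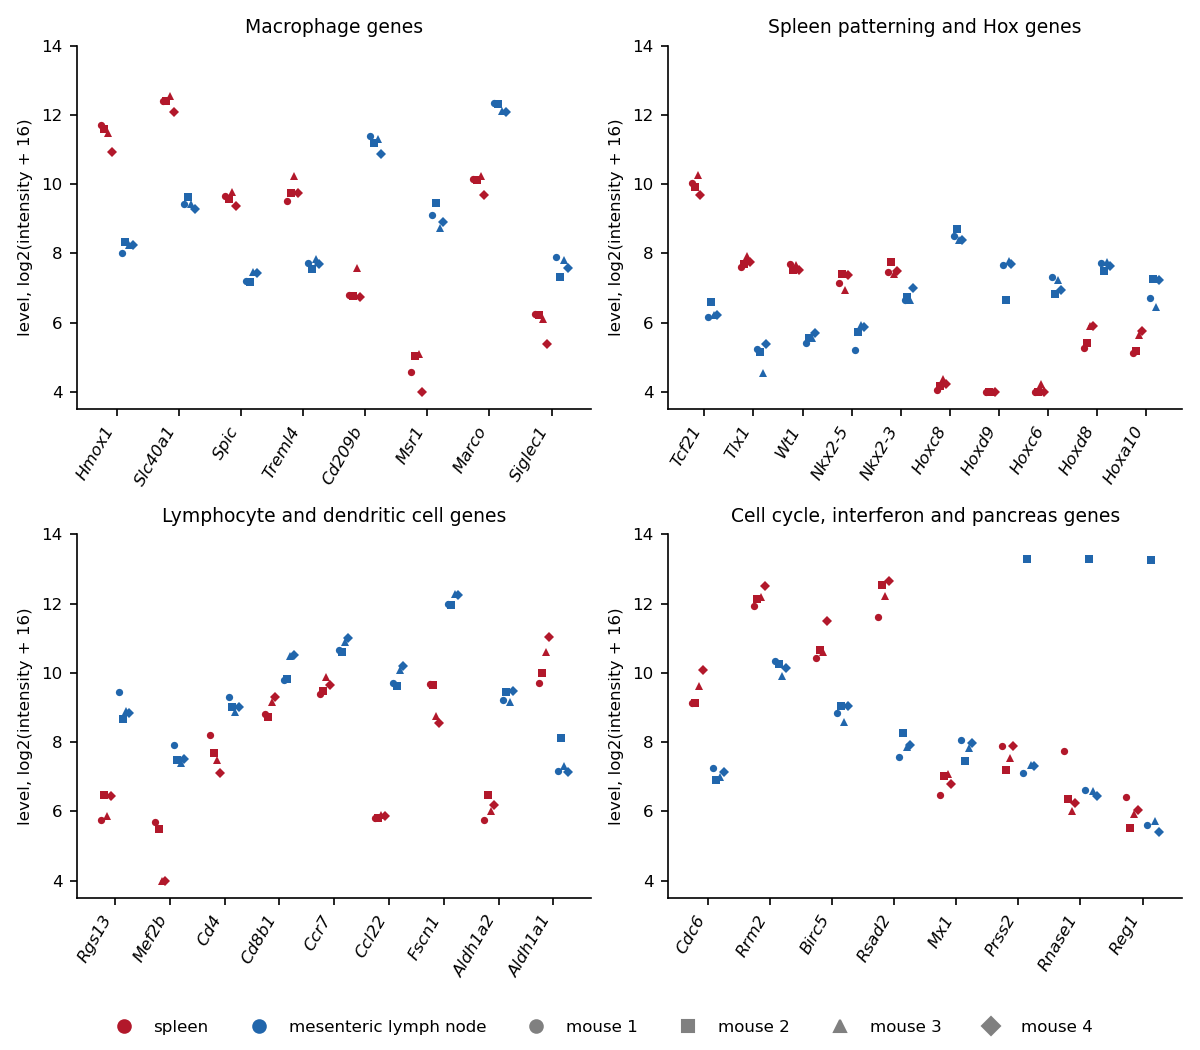
Levels on the log2(intensity + 16) axis of genes grouped by role, with each point an array, spleen in red to the left of node in blue, and the mark showing the mouse. Iron recycling genes and patterning factors sit higher in spleen, Cd209b, the Hox genes, Ccl22 and Aldh1a2 sit higher in node, and the 3 pancreas genes reach 13.3 in the node of mouse 2 alone.

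The largest fall in spleen was that of Glycam1, a mucin made by high endothelial venules as a ligand for L-selectin. It was listed at 0 or less in all 4 spleens and was at 13.10, 13.03, 13.11 and 13.12 in the nodes (adjusted p = 8.36e-06), so that no fold is given. Madcam1, the vessel ligand of the gut homing integrin, was at 8.38, 8.52, 8.19 and 8.22 in the spleens of mice 1 to 4, against 10.57, 10.16, 10.89 and 10.79 in their nodes. The groups did not overlap (-2.28 ± 0.20, adjusted p = 0.00176), but Madcam1 stayed well above the floor in spleen. Chst4, a sulfotransferase that modifies L-selectin ligands, fell in spleen with a difference of -0.82 ± 0.13 (adjusted p = 0.00971), missed the threshold without mouse 4 and stood at -0.89 to -0.77 when any mouse was left out. In this list 5 of 8 tested genes fell and 0 rose, against 3 and 1 on the values as deposited and 3 and 0 with mice 3 and 4 alone. The number that fell was 2 to 4 when 1 mouse was left out, lowest without mouse 4.

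Lymphatic endothelium is known to line the sinuses of the node and to be sparse in spleen. Lyve1, the hyaluronan receptor of lymphatic endothelium and of some macrophages, was at 4.23, 4.00, 4.97 and 4.00 in the spleens of mice 1 to 4, against 11.71, 11.55, 11.48 and 11.49 in their nodes. The deposited value was 0 or less in the spleens of mice 2 and 4, and every node was above 11 (-7.26 ± 0.21, adjusted p = 9.46e-05). Pdpn, podoplanin, was at 6.16, 6.41, 5.72 and 5.93 in the spleens of mice 1 to 4, against 8.91, 9.20, 8.99 and 8.49 in their nodes (-2.84 ± 0.15, adjusted p = 0.000389). Flt4, the receptor for the lymphatic growth factor VEGF-C, fell in spleen with a difference of -1.85 ± 0.14 (adjusted p = 0.00118). In all, 6 of 9 lymphatic genes fell and 0 rose, with 4 to 6 falling when 1 mouse was left out, lowest without mouse 1, 3 or 4, and 3 on the values as deposited. Of 15 genes of blood endothelium, 10 fell and 2 rose, with 5 and 2 on the values as deposited. Among those that fell were the VEGF receptor Kdr (-1.16 ± 0.13), the tight junction protein Cldn5 (-1.25 ± 0.12), Egfl7 (-1.41 ± 0.15) and the sialomucin Emcn (-1.27 ± 0.13), with adjusted p of 0.00409, 0.00209, 0.0032 and 0.00252.

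Stromal genes separated in both directions. Coch, an extracellular matrix protein best known from the inner ear and also made by follicular dendritic cells, was at 12.01, 11.80, 12.48 and 12.13 in the spleens of mice 1 to 4, against 8.57, 8.27, 7.72 and 7.77 in their nodes. It was higher in all spleens, 16.3-fold (4.03 ± 0.25, adjusted p = 0.000643). Il33, an alarmin cytokine kept in the nuclei of reticular cells, was at 7.84, 7.84, 7.56 and 7.64 in the spleens of mice 1 to 4, against 10.65, 10.36, 10.41 and 10.35 in their nodes (-2.72 ± 0.12, adjusted p = 0.000225). Tnfsf11, the cytokine RANKL that marginal reticular cells make, was at 5.31, 5.67, 5.42 and 5.09 in the spleens of mice 1 to 4, against 8.13, 7.81, 8.08 and 7.91 in their nodes (-2.61 ± 0.16, adjusted p = 0.000536). Il33, Tnfsf11 and Pdpn were thus lower in every spleen than in any node. Bst1, the ectoenzyme BP-3 of reticular cells, also fell (-1.35 ± 0.11, adjusted p = 0.00132). Of 14 tested genes of reticular stroma and follicular dendritic cells, 8 fell and 2 rose, and 4 to 8 fell when 1 mouse was left out, lowest without mouse 1, 3 or 4, and 4 on the values as deposited. The median was -0.36 in mice 1 and 2 and -0.58 in mice 3 and 4.

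Of 27 tested genes of collagen and matrix, 18 fell in spleen and 2 rose (median -0.85), and 12 to 15 fell when 1 mouse was left out, lowest without mouse 1. The median was -1.24 in mice 1 and 2, which include the node with pancreas transcripts, and -0.66 in mice 3 and 4, where 14 fell and 3 rose. Lum, the proteoglycan lumican, was at 5.47, 5.26, 5.75 and 5.66 in the spleens of mice 1 to 4, against 9.96, 10.63, 10.40 and 10.26 in their nodes (-4.78 ± 0.18, adjusted p = 0.000145). Postn, periostin, fell with a difference of -3.47 ± 0.12 (adjusted p = 0.000126), decorin, Dcn, with -3.10 ± 0.15 (adjusted p = 0.000294), the calcification inhibitor Mgp with -2.16 ± 0.12 (adjusted p = 0.000454) and the collagen VI chain Col6a2 with -1.75 ± 0.12 (adjusted p = 0.000811). The contractile genes went the other way. Acta2, smooth muscle actin, rose by 1.17 ± 0.16 (adjusted p = 0.00707) and Myl9, its myosin light chain, by 1.30 ± 0.16 (adjusted p = 0.00468), and 6 of 10 smooth muscle genes rose and 1 fell. The number that rose was 3 to 5 when 1 mouse was left out, lowest without mouse 1 or 3.

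Transcription factors of body position divided the organs. Tcf21, needed for the spleen to form, was at 10.04, 9.91, 10.28 and 9.69 in the spleens of mice 1 to 4, against 6.17, 6.61, 6.21 and 6.21 in their nodes (3.68 ± 0.16, adjusted p = 0.000231). Tlx1, without which mice lack a spleen, was at 7.62, 7.68, 7.92 and 7.74 in the spleens of mice 1 to 4, against 5.23, 5.16, 4.56 and 5.38 in their nodes (2.66 ± 0.20, adjusted p = 0.00107). Wt1, another factor needed for the organ, was at 7.69, 7.51, 7.66 and 7.52 in the spleens of mice 1 to 4, against 5.41, 5.56, 5.54 and 5.71 in their nodes (2.04 ± 0.13, adjusted p = 0.000627). All 3 were higher in every spleen. Nkx2-5 rose by 1.52 ± 0.18 and Nkx2-3, which is needed for spleen and gut lymphoid vessels, by 0.77 ± 0.13 (adjusted p = 0.0041 and 0.0127). Nkx2-3 stood at 0.71 to 0.86 when any mouse was left out and missed the threshold without mouse 1 or 3. Another probe set stood at -0.31 for Tcf21 and at -0.06 for Nkx2-3, opposite in sign, and neither was called (adjusted p = 0.16 and 0.754). Of the 6 tested genes of this list, 5 rose and 0 fell.

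Hox genes, which give cells their place along the body axis, fell in 5 of 10 tested cases and rose in 0. Hoxc8 was at 4.06, 4.17, 4.36 and 4.23 in the spleens of mice 1 to 4, against 8.49, 8.71, 8.40 and 8.38 in their nodes, near the floor in all spleens (-4.29 ± 0.14, adjusted p = 0.000101). Hoxd9 was listed at 0 or less in all spleens and was at 7.66, 6.66, 7.78 and 7.69 in the nodes (adjusted p = 0.000638). Hoxc6 was at 4.00, 4.00, 4.23 and 4.00 in the spleens of mice 1 to 4, against 7.33, 6.83, 7.24 and 6.95 in their nodes and was listed at 0 or less in 3 spleens (adjusted p = 0.00022). Hoxd8 fell with a difference of -2.03 ± 0.15 and Hoxa10 with -1.49 ± 0.22 (adjusted p = 0.00112 and 0.00814). A further 10 Hox genes with a probe set were too dim to be tested.

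Fat was the other large difference. Adipoq, the adipocyte hormone adiponectin, was at 4.41, 4.25, 4.50 and 4.20 in the spleens of mice 1 to 4, against 11.94, 12.52, 11.87 and 11.97 in their nodes (-7.74 ± 0.18, adjusted p = 6.73e-05). Retn, the hormone resistin, was at 4.66, 4.39, 5.30 and 5.50 in the spleens of mice 1 to 4, against 11.06, 11.69, 11.26 and 11.17 in their nodes (-6.33 ± 0.28, adjusted p = 0.000225). Fabp4, the fatty acid carrier of fat cells and some macrophages, was at 7.55, 7.48, 7.71 and 8.03 in the spleens of mice 1 to 4, against 12.37, 12.62, 12.52 and 12.49 in their nodes (-4.80 ± 0.15, adjusted p = 9.61e-05), and 4 probe sets of it gave -5.66 to -0.99. All nodes were above all spleens in these 3 genes, as their choice among the largest falls required. Of 11 tested adipocyte genes, 10 fell in spleen and 0 rose, with a median of -4.80. The summed intensity of this list was 3330 to 3680 in the spleens and 34300 to 42400 in the nodes, highest in the node of mouse 2, and 0 of its genes were at 0 or less in all spleens.

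The remaining large falls were mostly genes known from fat or liver metabolism. Car3, a carbonic anhydrase abundant in fat and muscle, fell with a difference of -6.93 ± 0.19 and Pck1, the enzyme of glyceroneogenesis and gluconeogenesis, with -6.00 ± 0.31. Thrsp, a regulator of fat synthesis, had -5.66 ± 0.14, the cytochrome Cyp2e1 -5.59 ± 0.22, the cysteine dioxygenase Cdo1 -4.74 ± 0.22 and the carboxylesterase Ces1d -4.74 ± 0.22. Cidec, which enlarges lipid droplets, had -4.68 ± 0.12 and the amine oxidase Aoc3 of fat cells and vessels -4.63 ± 0.14. Adjusted p lay at or under 0.000332 for these 8 genes. Gbp2b, a guanylate-binding protein that interferon induces, was at 5.30, 5.14, 5.48 and 5.45 in the spleens of mice 1 to 4, against 10.18, 10.18, 10.06 and 9.95 in their nodes (-4.75 ± 0.14, adjusted p = 9.46e-05). The adipocyte list was high in the same arrays as the matrix, endothelial, lymphatic and node macrophage genes above and the complement genes below, and its part in those differences was not tested.

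T cell genes fell in spleen. Cd4, the co-receptor of helper T cells, was at 8.21, 7.69, 7.49 and 7.11 in the spleens of mice 1 to 4, against 9.31, 9.02, 8.87 and 9.01 in their nodes (-1.42 ± 0.16, adjusted p = 0.00365). Cd8b1, the beta chain of the co-receptor of cytotoxic T cells, was at 8.80, 8.73, 9.16 and 9.30 in the spleens of mice 1 to 4, against 9.78, 9.82, 10.50 and 10.51 in their nodes (-1.15 ± 0.12, adjusted p = 0.00285). Every node exceeded every spleen in both genes. Cd5 (-1.28 ± 0.13, adjusted p = 0.00283), the receptor's zeta chain Cd247 (-1.28 ± 0.18, adjusted p = 0.00684) and the kinase Zap70 (-1.34 ± 0.17, adjusted p = 0.00569) fell too. The other probe sets of Zap70, at -0.18 and -0.60, were not called (adjusted p = 0.594 and 0.0569). In all, 14 of 17 genes common to T cells fell while 0 rose (median -1.15). On the values as deposited 5 fell and 0 rose. The median was -0.86 in mice 1 and 2 and -1.30 in mice 3 and 4. Ccr7, the receptor that brings naive T cells and dendritic cells into nodes, fell with a difference of -1.19 ± 0.12 (adjusted p = 0.00255). Of the list of naive T cell and egress genes, 4 of 10 fell, and 1 to 5 when 1 mouse was left out, lowest without mouse 3 or 4, and 1 on the values as deposited.

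Regulatory and follicular helper T cell genes fell in 6 of 11 and 7 of 12 cases, and 0 rose in either list, with 3 and 4 falling on the values as deposited. Itgae, the integrin CD103 that holds cells at epithelium, was at 7.09, 7.47, 6.90 and 6.62 in the spleens of mice 1 to 4, against 8.65, 8.92, 8.97 and 8.78 in their nodes (-1.81 ± 0.17, adjusted p = 0.00194). The folate receptor 4 gene Izumo1r (-1.51 ± 0.22), Gpr83 (-1.41 ± 0.18), the co-stimulator Tnfrsf4 (-1.10 ± 0.13) and the inhibitor Ctla4 (-0.96 ± 0.13) had adjusted p of 0.00804, 0.00517, 0.00409 and 0.00657. Il21, a cytokine of follicular helper cells, was at 5.47, 5.39, 5.08 and 5.19 in the spleens of mice 1 to 4, against 6.63, 6.40, 6.41 and 6.89 in their nodes (-1.30 ± 0.15, adjusted p = 0.00394). The groups did not overlap, although all values were low on the scale. Icos (-1.19 ± 0.11), Tox (-1.09 ± 0.13) and Sostdc1 (-1.68 ± 0.14) fell with adjusted p of 0.00222, 0.0046 and 0.00142.

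All 8 tested genes of germinal centre B cells fell in spleen (median -1.48). Rgs13, a regulator of G protein signalling found in these cells, was at 5.76, 6.46, 5.86 and 6.43 in the spleens of mice 1 to 4, against 9.46, 8.67, 8.91 and 8.83 in their nodes (-2.84 ± 0.27, adjusted p = 0.00209). Mef2b, which encodes a transcription factor that drives the germinal centre programme, was at 5.71, 5.49, 4.00 and 4.00 in the spleens of mice 1 to 4, against 7.91, 7.49, 7.39 and 7.50 in their nodes (-2.77 ± 0.30, adjusted p = 0.0032). No spleen reached the lowest node in either gene. For Mef2b the spleens of mice 3 and 4 were at the floor of 4.00, so the size of its difference is a bound. Those of mice 1 and 2, with the higher 3' to 5' ratios, were above the floor, and the part of RNA integrity was not tested. Mybl1 fell with -1.71 ± 0.16, Gcsam with -1.36 ± 0.11 and Basp1 with -1.01 ± 0.12 (adjusted p = 0.00211, 0.00152 and 0.00425). In the peripheral lymph nodes of the same mice, where all 4 wild type tissues were normalized together, Rgs13 averaged 6.12 and Mef2b 4.99.

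Among 18 tested genes common to B cells, 3 rose and 1 fell, near the shares over all genes (1 rose without mouse 1, 3 or 4, and 2 without mouse 2), with a median of 0.10 that turned to -0.045 when arrays were scaled to a common median. Cd24a, a surface protein that red cell precursors carry too, rose by 1.17 ± 0.13 (adjusted p = 0.00351). Pax5, the factor that fixes B cell identity, rose by 0.84 ± 0.16 and the low-affinity IgE receptor Fcer2a fell with -0.66 ± 0.13 (adjusted p = 0.0181 and 0.0188), but Pax5 missed the threshold without mouse 1, 3 or 4 and Fcer2a without mouse 1 or 4, with ranges of 0.68 to 0.90 and -0.74 to -0.58. Another probe set of Fcer2a stood at -1.16 and was not called (adjusted p = 0.0953). Among 9 marginal zone B cell genes, 1 rose (3 on the values as deposited), the complement receptor Cr2 (0.70 ± 0.14, adjusted p = 0.0225, 0.58 to 0.79 and not past the threshold without mouse 1, 3 or 4). Ighm, the constant region of IgM, was at 13.38, 13.29, 13.41 and 13.25 in the spleens of mice 1 to 4, against 12.91, 12.51, 12.83 and 12.88 in their nodes (0.55 ± 0.12, adjusted p = 0.0274). Its difference was 0.44 to 0.62 and missed the threshold when any mouse was left out. Its 8 probe sets gave -3.10 to 0.56, with 2 called higher and 4 called lower, so no direction is given for the gene. Of 14 plasma cell genes, 1 rose and 3 fell, with 1 and 0 on the values as deposited, and 1 fell without mouse 4 and 2 without mouse 3. The elongation factors Ell2 and Eaf2 differed in direction, with 0.80 ± 0.14 and -1.05 ± 0.16 (adjusted p = 0.0139 and 0.00917), and Ell2, at 0.69 to 0.90, missed the threshold without mouse 3 or 4.

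Natural killer and cytotoxic genes rose in 5 of 15 cases and fell in 1, with a median of 0.20 that was 0.32 in mice 1 and 2, whose spleens had the higher 3' to 5' ratios, and turned to -0.01 in mice 3 and 4, where 3 rose and 1 fell. The mean difference of the list was 0.57, 0.53, 0.36 and -0.07 in mice 1 to 4. Klra8, the receptor Ly49H, was at 7.62, 7.36, 7.12 and 6.55 in the spleens of mice 1 to 4, against 5.33, 4.60, 5.25 and 5.62 in their nodes (1.96 ± 0.30, adjusted p = 0.00953). Gzma, granzyme A, rose by 1.31 ± 0.12 and Gzmb, granzyme B, by 0.96 ± 0.14 (adjusted p = 0.00216 and 0.0076). The number that rose was 3 to 6 when 1 mouse was left out, lowest without mouse 1 or 3.

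Genes of migratory dendritic cells, which carry antigen from tissue into nodes by lymph, fell in 5 of 6 cases, and in 3 on the values as deposited. Ccl22, a chemokine that these cells make, was at 5.81, 5.82, 5.89 and 5.87 in the spleens of mice 1 to 4, against 9.71, 9.62, 10.08 and 10.21 in their nodes (-4.06 ± 0.14, adjusted p = 0.000125). Fscn1, the actin bundler fascin, was at 9.67, 9.65, 8.74 and 8.56 in the spleens of mice 1 to 4, against 11.99, 11.96, 12.28 and 12.24 in their nodes (-2.96 ± 0.29, adjusted p = 0.00237). Both were higher in all nodes, and for Fscn1 the spleens of mice 3 and 4 lay about 1 log2 unit below those of mice 1 and 2. Socs2 fell with -1.25 ± 0.11 and Tmem176b with -1.06 ± 0.11 (adjusted p = 0.00176 and 0.00283). Siglech, a receptor of plasmacytoid dendritic cells, fell with -2.03 ± 0.18 (adjusted p = 0.00176), as did 3 of 6 genes of that list, which was 1 to 3 when 1 mouse was left out, lowest without mouse 1, 3 or 4, and 1 on the values as deposited, where 1 rose. Of 8 genes of resident dendritic cells, 3 rose and 1 fell, namely Batf3 (-0.77 ± 0.11, adjusted p = 0.00793), and 0 to 1 rose when 1 mouse was left out, lowest without mouse 1 or 3.

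Retinoic acid, made from vitamin A by dendritic and stromal cells of mesenteric nodes, is known to imprint gut homing on lymphocytes. Its synthesizing enzymes went opposite ways. Aldh1a2, the enzyme RALDH2, was at 5.75, 6.47, 6.01 and 6.18 in the spleens of mice 1 to 4, against 9.21, 9.45, 9.16 and 9.47 in their nodes (-3.22 ± 0.13, adjusted p = 0.000182). Aldh1a1, the enzyme RALDH1, lay between 9.70 and 11.05 in the 4 spleens, against 7.15 to 8.12 in the nodes (2.90 ± 0.33, adjusted p = 0.00394). Rdh10, which makes retinal for both, rose in spleen by 1.06 ± 0.11 (adjusted p = 0.00259). Ccr9, the receptor for a chemokine of the small intestine, fell with -1.01 ± 0.14 and Gpr15, a receptor that leads T cells to the colon, with -1.09 ± 0.13 (adjusted p = 0.00737 and 0.00394). Another probe set of Ccr9 stood at -1.02 and was not called (adjusted p = 0.0516). Over the list, 7 of 12 tested genes fell in spleen and 3 rose, and 4 to 7 fell when 1 mouse was left out, lowest without mouse 1, 3 or 4, and 4 on the values as deposited.

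Of 21 tested chemokines, 10 fell and 2 rose, the platelet chemokines Ppbp and Pf4. Cxcl16, a membrane-bound chemokine, fell with -1.58 ± 0.12 and Cxcl14 with -1.30 ± 0.14 (adjusted p = 0.00124 and 0.00308). The number that fell was 5 to 9 when 1 mouse was left out, lowest without mouse 4, and 4 on the values as deposited. Of 15 chemokine receptors, 6 fell and 1 rose, against 1 and 2 on the values as deposited, where their median turned to 0.053, and 3 fell without mouse 1 or 4. The gene that rose was Ackr3, a scavenging receptor for the stromal chemokine CXCL12, at 9.25, 9.14, 9.68 and 9.24 in the spleens of mice 1 to 4, against 7.22, 7.97, 6.84 and 6.62 in their nodes (2.17 ± 0.29, adjusted p = 0.00633).

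Interferon-induced genes did not move together. Rsad2, the antiviral protein viperin, was at 11.63, 12.53, 12.21 and 12.65 in the spleens of mice 1 to 4, against 7.58, 8.25, 7.87 and 7.92 in their nodes. It was 20.4-fold higher in spleen (4.35 ± 0.15, adjusted p = 0.000121), in all 3 of its probe sets (3.02 to 4.49). Mx1, another gene that interferon induces, was at 6.46, 7.01, 7.07 and 6.80 in the spleens of mice 1 to 4, against 8.07, 7.45, 7.84 and 7.98 in their nodes (-1.0 ± 0.21, adjusted p = 0.0237). Mx1 missed the threshold without mouse 1, 3 or 4, with -1.21 to -0.79. Over the list 3 of 13 genes rose and 4 fell, against 6 and 0 on the values as deposited, and 0 fell without mouse 1 or 4, 1 without mouse 3 and 2 with mice 3 and 4 alone. Complement genes fell in 7 of 12 cases and rose in 0, with 3 falling on the values as deposited. Among them were factor B, Cfb (-2.26 ± 0.13, adjusted p = 0.000437), the proteases C1ra (-1.58 ± 0.11, adjusted p = 0.000934) and C1s1 (-1.21 ± 0.14, adjusted p = 0.00365) and their inhibitor Serping1 (-1.12 ± 0.13, adjusted p = 0.00389).

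**Figure D3:**
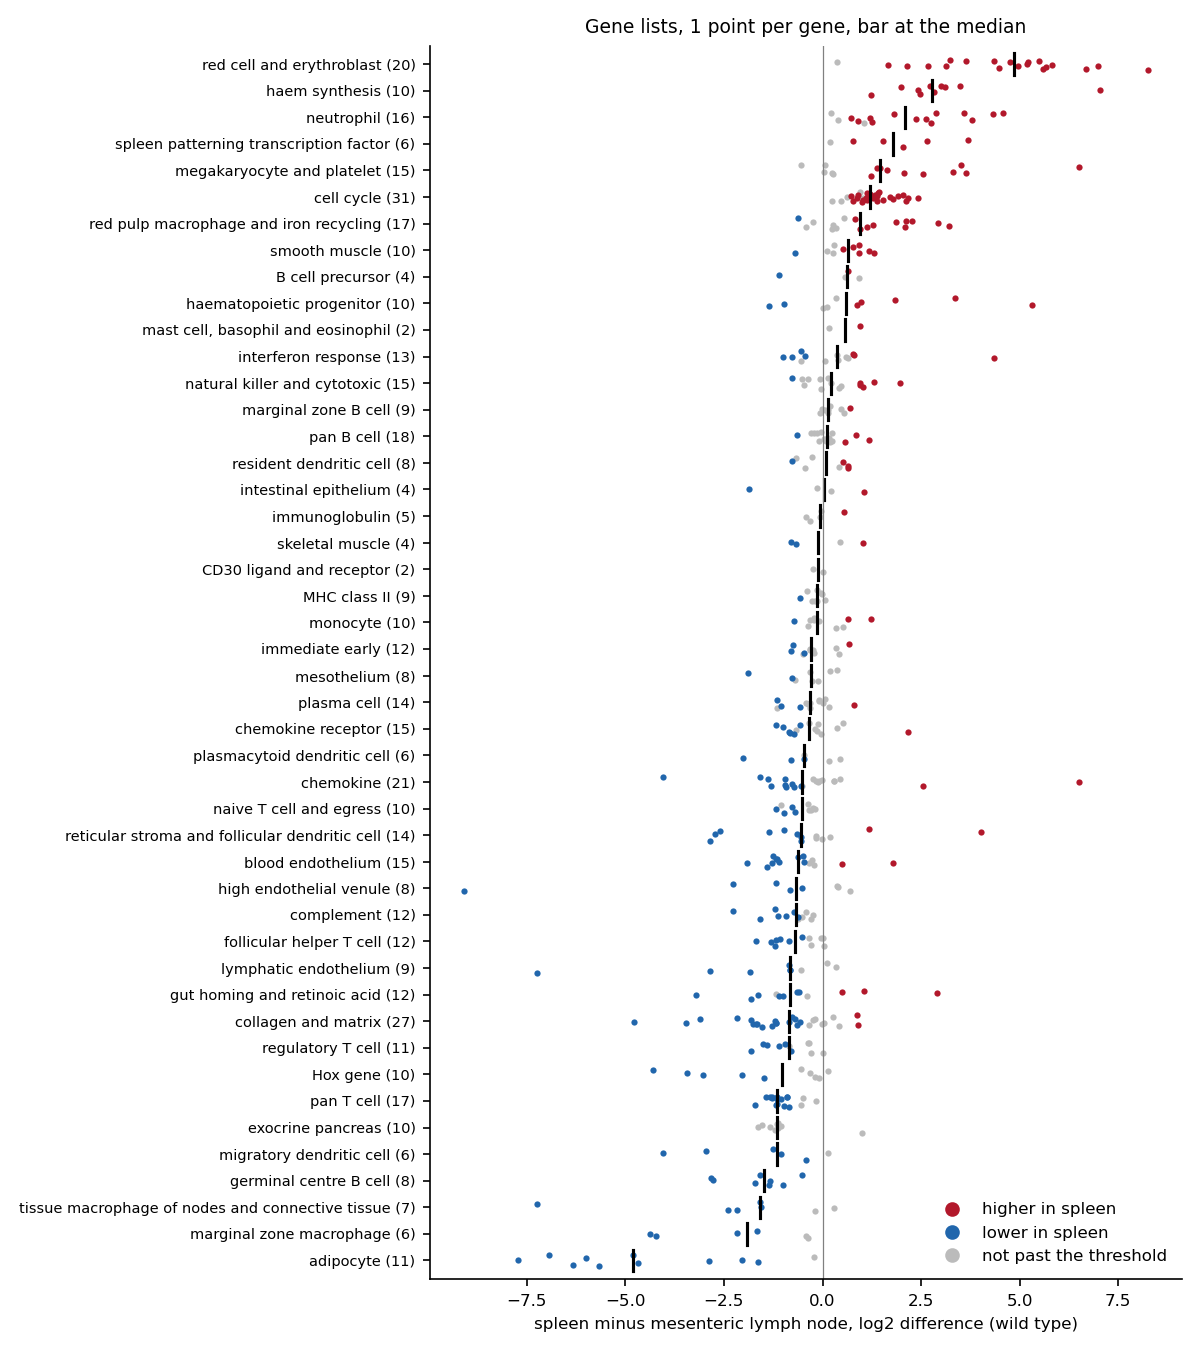
Spleen minus node log2 difference of each tested gene in wild type mice, by list, with the number of tested genes in brackets and a bar at the median. Red points rose, blue points fell and grey points did not pass the threshold. Red cell, haem and neutrophil genes have the highest medians and adipocyte genes the lowest, at -4.80.

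Transcripts of neighbouring organs were present in some arrays. Reg1, a secreted protein of the exocrine pancreas, was at 6.41, 5.52, 5.92 and 6.04 in the spleens of mice 1 to 4, against 5.61, 13.26, 5.73 and 5.41 in their nodes. The node of mouse 2 stood more than 6 log2 units above every other array, and the pancreatic trypsin gene Prss2 and ribonuclease gene Rnase1 stood at 13.29 and 13.28 in the same node. The summed intensity of the pancreas list was 101000 there, 925 to 1940 in the spleens and 426 to 448 in the other 3 nodes. Of its 10 tested genes, 0 rose and 0 fell (median -1.15). Without mouse 2, 4 rose and 0 fell (median 0.85). The counts for the red cell, haem, marginal zone macrophage, node macrophage and adipocyte lists were the same with and without this mouse. Of 8 mesothelial genes 2 fell, among them Gpm6a (-1.90 ± 0.14, adjusted p = 0.000935), and 0 rose, with 1 falling without mouse 3 or 4.

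In the smaller or dimmer groups few genes were called. B cell precursor genes rose in 1 and fell in 1 of 4 cases, the fall being Vpreb3, a relative of the surrogate light chain gene (-1.10 ± 0.12, adjusted p = 0.0035). Dntt, the nucleotide-adding enzyme of lymphocyte precursors, was at 5.47, 4.43, 5.92 and 8.41 in the spleens of mice 1 to 4, against 5.92, 4.00, 6.39 and 5.65 in their nodes, highest in the spleen of mouse 4 (0.57 ± 0.56, adjusted p = 0.486). In MHC class II genes 0 of 9 rose and 1 fell. In immunoglobulin genes, by representative probe set, 1 of 5 was called higher and 0 lower. That gene was Ighm, for which no direction is given above because its probe sets were called both ways. Immediate early genes rose in 1 and fell in 3 of 12 cases, with no call when mouse 1, 3 or 4 was left out. In skeletal muscle genes 1 of 4 rose and 2 fell, in intestinal epithelium genes 1 of 4 rose and 1 fell, and in mast cell, basophil and eosinophil genes 1 of 2 rose. The precursor gene that rose, the MHC class II gene and the immunoglobulin gene lost their calls without mouse 1, 3 or 4, the immunoglobulin gene also without mouse 2, the mast cell group its call without mouse 1 or 3, and the skeletal muscle group all calls without mouse 4. Tnfsf8, the gene for CD30L, was at 6.51, 6.60, 6.53 and 6.53 in the spleens of mice 1 to 4, against 6.44, 6.85, 6.54 and 6.26 in their nodes and its receptor gene Tnfrsf8 at 5.49, 5.78, 5.78 and 5.82 in the spleens of mice 1 to 4, against 5.83, 6.08, 5.92 and 6.03 in their nodes. Both were low in all arrays, with differences of 0.02 ± 0.13 and -0.25 ± 0.11 (adjusted p = 0.929 and 0.154).

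The levels of the leading genes in the other tissues of the same wild type mice are given as a description, from a joint normalization of 16 arrays. Glycam1 averaged 13.03 in mesenteric node, 13.22 in peripheral node and 4.00 in thymus. Lyve1 averaged 11.54, 10.57 and 4.56 in the same order, and Cd209b 11.19, 11.49 and 4.53. In these 3 genes both kinds of node stood far above thymus. For Madcam1 the peripheral node mean of 8.46 was close to that of spleen, 8.32, below the mesenteric node mean of 10.61. Aldh1a2 likewise averaged 6.99 in peripheral node, 6.07 in spleen and 9.33 in mesenteric node. Adipoq averaged 11.84 in peripheral node and 8.97 in thymus. Slc4a1 and Tcf21 were low in both, at 4.48 and 4.89 in peripheral node and 5.18 and 4.80 in thymus. Cdc6 averaged 9.15 in thymus, a tissue of dividing cells, and 6.09 in peripheral node.

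**Figure D4:**
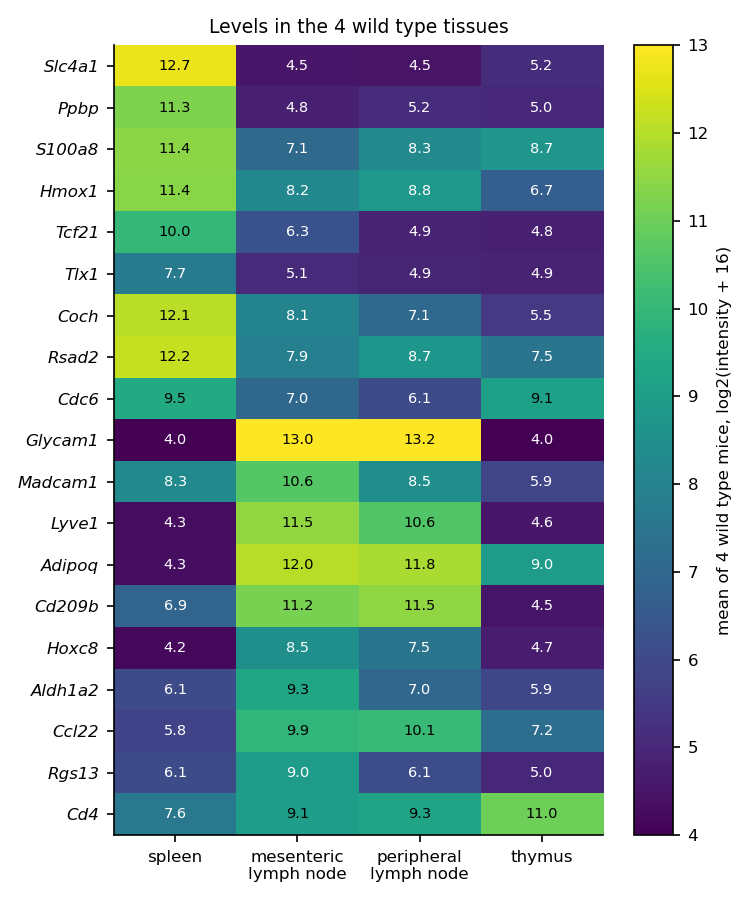
Mean level of 19 named genes in the 4 tissues of the wild type mice, in log2(intensity + 16), with 4 mice per tissue. Spleen differs from both kinds of lymph node for Slc4a1 and Tcf21, and mesenteric node stands above peripheral node for Aldh1a2, Madcam1 and Rgs13.

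In the CD30L transgenic mice the same contrast called 4669 of 27022 probe sets (17.3%), 2268 higher and 2401 lower in spleen. Called in both genotypes were 3324 probe sets, 3323 of them in the same direction, which is 51.9% of the wild type calls and 71.2% of the transgenic calls. Of 2488 probe sets called with at least a 2-fold difference in wild type and also tested in transgenic mice, 2463 had the same sign there and 1920 (77.2%) were called in that direction. In these mice Actb 3' to 5' ratios were 2.83 and 3.57 in the spleens of mice 1 and 2, 1.68 and 1.85 in those of mice 3 and 4, 3.10 in the node of mouse 1 and 1.59 to 1.75 in the other nodes, and their part in the shared calls was not tested. Tcf21 and Slc4a1 had transgenic differences of 3.78 ± 0.30 and 7.76 ± 0.22. Glycam1 was at the floor in all 4 transgenic spleens and averaged 13.06 in the transgenic nodes. The mice of the 2 genotypes are different animals, and whether they share litters by number is not stated.

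The test of the difference between genotypes, transgenic minus wild type, called 0 of 27022 probe sets (0%) by limma, with a smallest adjusted p of 0.138, and 1640 had an unadjusted p under 0.05. The smallest p values were those of Tubb4a, a neuronal tubulin, of a probe set without a symbol, of Fads3, a relative of the fatty acid desaturases, of Calm4, a calmodulin-like protein, and of the kinase Tnk1. Tubb4a averaged 6.82 in transgenic spleens and 7.43 in transgenic nodes, while it was listed at 0 or less in all 4 wild type spleens and was at 7.26, 7.95, 7.20 and 7.38 in the wild type nodes. Its adjusted p was 0.138 here, 0.00133 with an offset of 1 in place of 16, and 0.0083 on the values as deposited. The probe set without a symbol had tissue differences of -1.17 in transgenic and -3.96 in wild type mice, and Fads3 of -1.98 in transgenic and -0.62 in wild type mice. Calm4 had -0.64 in transgenic and 0.57 in wild type mice, and Tnk1 -0.33 in transgenic and 0.73 in wild type mice (adjusted p = 0.394 for Fads3, Calm4 and Tnk1). The other 2 probe sets of Tnk1 had wild type differences of -0.47 and -0.11 and were not called (adjusted p = 0.442 and 0.858). The tissue difference of Rgs13 was -0.95 ± 0.25 in transgenic mice against -2.84 ± 0.27 in wild type mice, with a mean of 9.0 in transgenic spleens (adjusted p = 0.646 for the difference between genotypes). For Cdc6 it was 1.34 ± 0.13 in transgenic and 2.43 ± 0.20 in wild type mice (adjusted p = 0.646). A smaller difference in transgenic mice was common to 115 of the 150 named genes called in wild type mice. A smaller difference is thus not particular to Rgs13 and Cdc6, while the size of their change was not set against that of other genes. The genes were called on wild type values, and the part of that choice in the share was not tested.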

How the data were processed

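The authors deposited 1 table of linear Affymetrix intensity values, 1 per probe set and sample, made from biotin-labelled total RNA per the labels' protocols. The algorithm and scaling behind these intensities are not given in the labels used here, and 15.4% to 18.4% of the values of the 8 arrays were below 0, so some background had been subtracted. The table names probe sets only. GEO's platform annotation gave 1 symbol to 34945 of the 45037 probe sets used, several to 932 and none to 9160, and 64 control probe sets were left out.

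Negative values were set to 0, an offset of 16 was added, and log2 values were quantile normalized over the 8 arrays in R 4.3.3 with limma 3.58.1. Probe sets whose mean over the 8 arrays passed the 40th percentile were tested by lmFit and eBayes with mouse as a block and Benjamini-Hochberg adjustment over all 27022 of them. The block follows the labels, by which the spleen and node of a number come from 1 mouse. The deviations of a mouse's spleen and node from their group means correlated at 0.15, -0.16, -0.05 and 0.07 for mice 1 to 4. No pair of arrays was identical. The arrays of the transgenic mice were normalized and fitted in the same way, and the difference between genotypes was tested with all 16 arrays in 1 fit.

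A gene was represented by its probe set of highest mean. Genes named were the 15 largest rises and falls among called genes whose groups did not overlap, up to 5 genes of smallest p from each of 46 lists, a few uncalled list genes, Tnfsf8 and Tnfrsf8, and the 5 smallest p of the genotype difference. Members, lists and genes were chosen with earlier results of these data known. Of 645 distinct list genes, 573 had a probe set with 1 symbol. The number of arrays limits the precision. Data were simulated with 27022 probe sets and 50 changed per size, at log2 differences of 0.5, 1, 2 and 4. The wild type fit recovered 0%, 40%, 92% and 92% of these, with 7 false calls. The fit of the genotype difference recovered 6%, 56%, 88% and 100%, with 7 false calls. Far fewer probe sets changed there than the 6397 called in the wild type data, of which 2612 differed at least 2-fold. The Benjamini-Hochberg cutoff was therefore stricter in the simulation than in the real wild type fit. The simulated wild type shares do not give the recovery of that fit. The simulated genotype shares do not give the recovery of the real genotype fit either. The real genotype fit called 0 probe sets by limma. Tubb4a, with a transgenic minus wild type difference of 2.82, had an adjusted p of 0.138 in it. Whether the simulated probe sets matched those of the genotype fit in brightness and noise was not tested. Alternatives covered the offset, normalization, filter, block, variance moderation, array weights, call rule, probe set choice, a joint fit of both genotypes and leaving out each mouse. The fit of mice 3 and 4 alone was added after the data were seen.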

Additional observations from a re-analysis of the deposited data

Results flagged for a closer look

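Among the 159 genes named, each of the 318 groups of 4 arrays was examined for a single array far from the other 3, by Dixon's ratio, and 21 groups passed it, 8 of them with the array below the others. Chance gives about 1 in 20 groups. That rate does not hold where 3 arrays share the floor, as for Rhd in node and Hoxc6 in spleen. There the ratio is 1 whatever the remaining value is. The node of mouse 2 was far above the other nodes for the pancreas genes Prss2 (13.29, nearest 7.34), Rnase1 (13.28, nearest 6.63) and Reg1 (13.26, nearest 5.73), and for Adipoq (12.52, nearest 11.97), Ces1d (10.45, nearest 9.31), Rdh10 (8.79, nearest 8.60) and Tcf21 (6.61, nearest 6.21). It was below the other nodes for Gpr83 (6.53, nearest 7.12) and Hoxd9 (6.66, nearest 7.66). The spleen of mouse 4 was below the other spleens for Ppbp (10.57, nearest 11.44), Vcam1 (12.04, nearest 12.38) and Siglec1 (5.39, nearest 6.12), and above them for Ell2 (10.38, nearest 10.07). The spleen of mouse 3 was above the other spleens for Cd209b (7.59, nearest 6.80), Nr1h3 (8.73, nearest 8.17) and Hoxc6 (4.23, against the floor of 4.00). The spleen of mouse 2 was low for Ctla4 (6.43, nearest 6.65) and that of mouse 1 for Tnfrsf8 (5.49, nearest 5.78). Among the nodes, that of mouse 1 was high for Rhd (4.53, against the floor of 4.00) and Mybl1 (7.88, nearest 7.26), and that of mouse 3 was low for Basp1 (10.98, nearest 11.07).

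In 2 of the 159 genes named, every transgenic mouse differed between tissues in the direction opposite to every wild type mouse. Both were named for their small p in the test between genotypes, so the flag partly restates their choice. How many of all probe sets show opposite signs in this way was not counted. The transgenic minus wild type difference was -1.21 for Calm4 and -1.05 for Tnk1, with spleen below node in all 4 transgenic mice and above it in all 4 wild type mice. The test of that difference over all probe sets gave an adjusted p of 0.394 for each by limma. In wild type mice alone, Calm4 missed the threshold without mouse 1, 3 or 4, at 0.54 to 0.67, and Tnk1 without mouse 3 or 4, at 0.66 to 0.81. The other 2 probe sets of Tnk1 had wild type differences of -0.47 and -0.11, opposite in sign to the probe set described, and were not called (adjusted p = 0.442 and 0.858).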

How the results depend on the processing

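The choice of probe set was tried on list medians only, and called genes such as Ighm and Hbb-b2 had probe sets of opposite sign. No called gene named in the text changed sign under the alternatives applied to single genes. Genes that were not called did: Prss2, Rnase1 and Reg1 turned to 0.53, 0.12 and 0.56 without mouse 2, Prss2 and Reg1 to 0.39 and 0.41 with mice 3 and 4 alone, Tnfsf8 to -0.07 without mouse 4 and -0.09 with mice 1 and 2 alone, Timd4 to 0.01 and Tnfrsf8 to 0.09 on the values as deposited, and Dntt to -0.01 with mice 1 and 2 alone. On the values as deposited, interferon genes had 6 calls higher and 0 lower (3 and 4 with normalization), chemokine receptors 2 and 1 (1 and 6) and plasma cell genes 1 and 0 (1 and 3). Leaving out 1 mouse gave 2470 to 5783 calls in wild type, 1261 to 2861 higher and 1209 to 2922 lower in spleen, and 1406 to 3871 in transgenic mice, with fewer arrays in each fit, while calls of at least 2-fold stayed between 1942 and 2502. Without quantile normalization, 5227 probe sets were higher and 929 lower in spleen, and 4024 were called at 2-fold (3395 higher, 629 lower). The median over all probe sets was then 0.34, and 9 lists with a median below 0 turned above it, the highest being CD30 ligand and receptor at 0.25 and skeletal muscle at 0.24. An offset of 64 gave 1517 calls at 2-fold (884 higher, 633 lower), a filter at the 60th percentile 1646 (959 higher, 687 lower) with fewer probe sets tested, and a test against a fold of 1.5 gave 1201 calls (623 higher, 578 lower). With no filter 2131 probe sets were higher in spleen and 2806 were called in transgenic mice. The difference between genotypes had 1 call with an offset of 1 and 1 on the values as deposited, both Tubb4a. The fit without the replicate block gave 7980 calls in wild type (3890 higher, 4090 lower) and 6215 in transgenic mice, and of the 159 genes named 1, Calm4, lost its call. Among these genes, 16 lost their call on the values as deposited and 4 with no filter, and leaving out mouse 1, 2, 3 or 4 ended 7, 1, 9 and 9 calls. The causes of these changes were not tested. The number of arrays limits calls of differences under 2-fold, and probe sets near the floor carry only a bound.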
